A study of Mus musculus with 6 samples.

Results

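The genes described here are those of the adrenal RNA polymerase II tables that carry only a provisional name. Their symbols end in Rik, the clone names of the RIKEN mouse cDNA collection, or consist of Gm and digits, the names given to predicted mouse gene models. The rule was applied to the symbol of each row after its region suffix was removed. It found 484 of 12718 genes, 226 Rik genes and 258 Gm genes, and so 1452 of 38154 rows over 3 region tables. A further Gm gene, Gm10800, meets the rule but was left out of every count and share of the Rik and Gm genes. The other 12233 genes are called the named genes.

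DNA bound by RPB1, the catalytic core subunit of RNA polymerase II, was recovered by immunoprecipitation and sequenced (ChIP-seq). The antibody recognised the N-terminal domain. Adrenal glands came from 3 wild-type (WT) female mice and 3 female mice of genotype Armc5(-/-), called knockout or KO here. All 6 mice had the mixed background 129 sv X CD1 and were 10 to 14 months old, and each library carried its own mouse number. Deposited counts gave each gene 3 regions: its transcription start site (TSS), its body, and its transcription end site (TES), with 14511177 to 28190157 counts per library over all of them. Levels are counts-per-million values (CPM) after scaling within each region table.

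RNA polymerase II starts at the promoter, pauses a short way downstream of the start site, elongates through the gene body and slows again past the end of the gene before it is released. N-terminal RPB1 antibodies detect the enzyme whatever the phosphorylation of its C-terminal domain. ARMC5 serves as a substrate receptor of a cullin 3 ubiquitin ligase that acts on RPB1, and inherited ARMC5 mutations in humans cause nodular enlargement of the adrenal cortex. Provisional symbols cover a mixture of protein-coding genes whose role was not known when they were named, noncoding RNAs, pseudogenes and models that overlap other genes.

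Facts of the whole series bear on what follows. WT replicates 1 and 2 and KO replicate 1 had fewer counts than the other 3 libraries. Cortex and medulla markers fixed for the tissue were present in all 6 libraries: the gene body CPM of 7 cortex genes summed to 1253 to 2550 and that of 4 medulla genes to 153 to 655, with the highest medulla sum in KO replicate 2. Of fixed markers for kidney (5 genes), adipocytes (4) and liver (3), 0 were in the tables. A smaller share of a cell type and less RPB1 per cell cannot be told apart in whole glands. Armc5 itself was not analysed here, so the genotype labels were not checked on the targeted gene.

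The promoters of 3 of the 4 Rik genes called between genotypes are shown first, with those of 2 partners, as RefSeq gives them for GRCm38.p6. The promoter of 9130023H24Rik, the other called gene, is not shown. Each window runs from 250 bases before to 50 bases after a RefSeq start of the gene, 5′ to 3′ on the gene's own strand. For Mphosph9 and 5330417C22Rik that start lies inside the gene model, whose outer end was used for every distance and overlap between gene models. Capitals mark matches, on either strand, to the 4 motifs searched: TATAAA (the TATA box), CCAAT (read as ATTGG on the other strand), GGGCGG (the GC box, read as CCGCCC) and GAAA, any 2 bases, GAAA (the core of the interferon-stimulated response element, ISRE). 2810006K23Rik lies at chr5:124327839-124328138 on the plus strand and Mphosph9 at chr5:124327923-124328222 on the minus strand, so their windows share 216 bases. 1700013F07Rik lies at chr3:108537334-108537633 on the plus strand, and 5330417C22Rik, now named Elapor1, at chr3:108536492-108536791 on the minus strand. 1600014C10Rik lies at chr7:38182967-38183266 on the plus strand.
2810006K23Rik: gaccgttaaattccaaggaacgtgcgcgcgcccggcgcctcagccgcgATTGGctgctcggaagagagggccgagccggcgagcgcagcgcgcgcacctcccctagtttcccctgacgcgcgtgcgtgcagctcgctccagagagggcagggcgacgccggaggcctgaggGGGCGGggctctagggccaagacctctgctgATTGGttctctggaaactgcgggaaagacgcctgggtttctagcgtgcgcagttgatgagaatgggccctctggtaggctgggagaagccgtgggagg
Mphosph9: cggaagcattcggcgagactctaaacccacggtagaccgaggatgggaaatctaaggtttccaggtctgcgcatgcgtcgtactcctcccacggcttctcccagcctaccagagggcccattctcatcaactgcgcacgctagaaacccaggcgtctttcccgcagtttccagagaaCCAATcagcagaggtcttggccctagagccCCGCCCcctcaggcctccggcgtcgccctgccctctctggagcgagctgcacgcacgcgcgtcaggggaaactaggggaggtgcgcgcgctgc
1700013F07Rik: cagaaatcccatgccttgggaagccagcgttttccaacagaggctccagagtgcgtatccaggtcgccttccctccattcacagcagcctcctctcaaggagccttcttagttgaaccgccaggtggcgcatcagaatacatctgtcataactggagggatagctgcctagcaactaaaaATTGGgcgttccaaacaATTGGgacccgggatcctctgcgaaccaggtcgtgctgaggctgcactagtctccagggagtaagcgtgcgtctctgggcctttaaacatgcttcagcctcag
5330417C22Rik: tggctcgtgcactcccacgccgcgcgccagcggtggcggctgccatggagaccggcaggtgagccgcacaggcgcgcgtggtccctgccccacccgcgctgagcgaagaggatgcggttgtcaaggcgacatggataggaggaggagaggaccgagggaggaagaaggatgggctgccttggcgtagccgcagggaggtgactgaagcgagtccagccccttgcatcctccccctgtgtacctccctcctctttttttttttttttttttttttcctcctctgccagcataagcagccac
1600014C10Rik: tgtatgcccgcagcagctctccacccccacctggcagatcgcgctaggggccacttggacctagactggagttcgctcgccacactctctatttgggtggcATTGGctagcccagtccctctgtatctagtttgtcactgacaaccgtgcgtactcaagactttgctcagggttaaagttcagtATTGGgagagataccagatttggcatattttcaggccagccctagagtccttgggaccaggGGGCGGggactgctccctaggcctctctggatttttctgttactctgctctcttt

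The windows of 2810006K23Rik and 1600014C10Rik each held 2 CCAAT matches and 1 GGGCGG match. That of 1700013F07Rik held 2 CCAAT matches, and that of 5330417C22Rik held none of the 4 motifs. Among all 32851 promoters of the RefSeq table, 37.4% held CCAAT, 35.7% GGGCGG, 13.6% TATAAA and 3.44% the ISRE core. Among the 242 Rik and Gm genes with a promoter in that table, the shares were 42.6%, 50.0%, 5.37% and 4.96%. The 9777 named genes with a promoter had 38.8%, 66.6%, 6.80% and 2.86%.

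Annotation differed between the Rik genes and the Gm genes. RefSeq held 308 of the 484, 217 of 226 Rik genes and 91 of 258 Gm genes, against 12212 of 12233 named genes. Of the 308, 264 were protein coding, 30 long noncoding RNAs, 12 pseudogenes and 2 other RNAs. For 20 of them the symbol in the tables is an older name. Among these are A230050P20Rik, now Shfl, an inhibitor of ribosomal frameshifting with antiviral action, 1700021F05Rik, now Mtres1, a mitochondrial transcription rescue factor, 2410131K14Rik, now Spring1, a regulator of SREBP signalling, and 9330182L06Rik, now Elapor2. By position, 173 lay more than 1000 bases from any other gene analysed here. Another 45 had the outer end of their model at the start within 1000 bases of that of a gene on the opposite strand, which is called a divergent pair here, 60 others overlapped another gene model and 30 others lay within 1000 bases of one.

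Median RPB1 levels of the Rik and Gm genes were below those of the named genes in each region and library. At the TSS the median over the 484 genes was 39.8 ± 0.58 CPM in WT (mean ± SD of the library medians, n = 3) and 37.4 ± 0.77 CPM in KO. The named genes had 54.0 ± 1.59 and 54.6 ± 2.10 CPM, and the 6 library medians of the sets did not overlap, 36.8 to 40.3 against 52.2 to 56.8 CPM. In the gene body the WT medians were 28.4 ± 0.97 against 42.9 ± 1.03 CPM, and at the TES 33.1 ± 5.6 against 48.2 ± 0.34 CPM. The TES median of the Rik and Gm genes was highest in WT replicate 2, at 39.2 CPM, and lay between 28.2 and 34.5 CPM in the other 5 libraries.

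**Figure D1:**
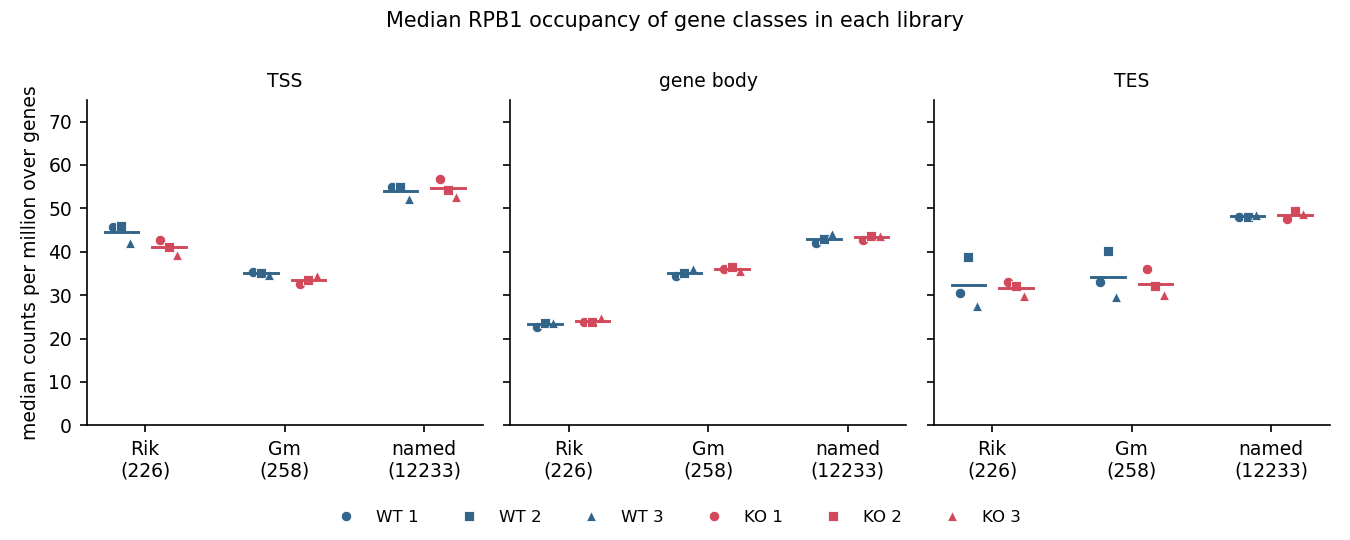
Median RPB1 ChIP CPM (y axis) over the 226 Rik, 258 Gm and 12233 named genes at the TSS, gene body and TES. Points are libraries, bars the mean of 3 mice; all 6 library medians of the named genes lie above all those of the Rik and Gm genes in each panel.

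Gene body counts grow with the length of a gene, and the sets differed in length. The median RefSeq gene model was 12.2 kb for the 308 matched Rik and Gm genes and 23.3 kb for 12208 named genes. Per kb of gene model, the WT gene body level was 1.63 ± 0.08 CPM for the former and 1.72 ± 0.04 CPM for the latter (n = 3), ranges over the 6 libraries of 1.55 to 1.71 and 1.69 to 1.78 that overlap. The median ratio of TSS to gene body CPM was higher in Rik and Gm genes, 1.39 ± 0.02 against 1.20 ± 0.06 in WT. With the gene body taken per kb, over genes with a RefSeq length only, the order was the other way, 21.6 ± 0.56 against 27.0 ± 0.76. The ratio not taken per kb also covered genes without a RefSeq length. An effect of length on the order was therefore not separated from the change in the genes covered.

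Rik and Gm genes had different CPM levels along the gene. These levels are not divided by gene length, which RefSeq gives for 217 of 226 Rik and 91 of 258 Gm genes. A difference in length was not separated from them. Rik genes had a WT median of 44.6 ± 2.2 CPM at the TSS and 23.3 ± 0.46 CPM in the gene body, and Gm genes had 35.0 ± 0.43 and 35.1 ± 0.88 CPM. The WT ratio of TSS to gene body CPM was 1.92 ± 0.07 in Rik genes and 1.09 ± 0.04 in Gm genes. Genes with a mean gene body level under 1 CPM or a library at 0 were left out of this ratio. It was 0.95 ± 0.002 in the remaining 174 of the 176 genes that RefSeq did not hold. These libraries' ranges of the ratio, 1.84 to 1.99 for Rik and 0.98 to 1.13 for Gm genes, did not overlap. By class, the WT median at the TSS was 58.2 ± 4.02 CPM in the 45 divergent genes, 26.0 ± 2.52 CPM in the 30 long noncoding RNAs and 12.2 ± 2.84 CPM in the 12 pseudogenes.

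Base composition of the promoter went with the TSS level in the same way in both sets. The 160 Rik and Gm genes with at least 10 CpG dinucleotides in the promoter window had a WT median of 58.9 ± 2.65 CPM at the TSS, and the 82 with fewer had 16.4 ± 2.05 CPM (n = 3). Named genes had 64.0 ± 1.17 CPM (8280 genes) and 19.3 ± 3.38 CPM (1497 genes). Promoters of Rik and Gm genes had a median of 18.0 CpG and 57.8% GC, against 21 CpG and 61.3% GC in named genes. The rank correlation between CpG count and WT TSS level was 0.51 over the 242 Rik and Gm genes and 0.41 over 9777 named genes, a description across genes that share libraries.

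**Figure D2:**
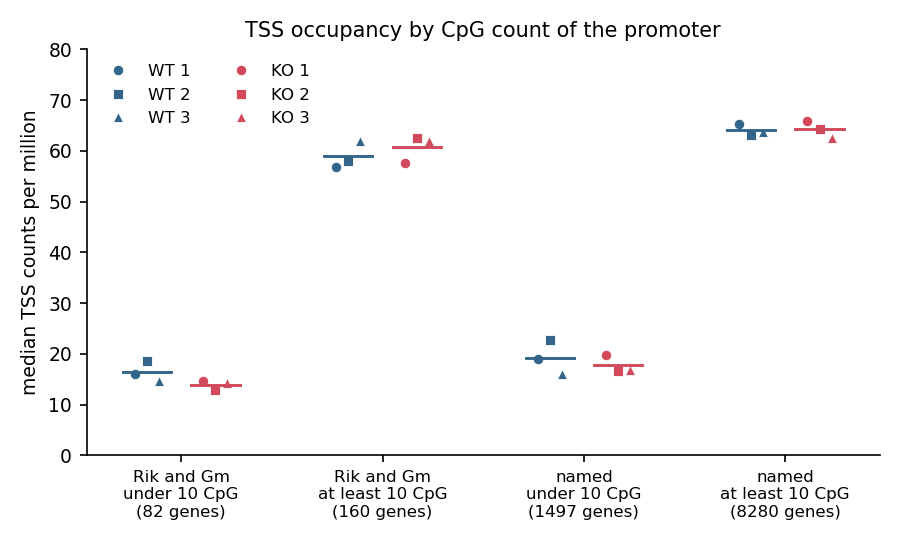
Median TSS CPM (y axis) of Rik and Gm genes and of named genes, split at 10 CpG dinucleotides in the promoter window. Points are libraries and bars means of 3 mice; in each library both sets had higher medians with at least 10 CpG, and WT medians of the Rik and Gm genes were 58.9 and 16.4 CPM.

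Rik and Gm genes, 484 of 12718, were present among the genes with the highest levels. By TSS level 8.68% of them were among the 1000 highest in WT, against 7.86% of all genes. By gene body and TES level the shares were 5.37% and 4.75%. Of the 100 genes with the highest WT level, 7 in the TSS table, 5 in that of gene bodies and 7 in that of TES were Rik or Gm genes, and 6, 3 and 5 of those belonged to a group related to Gm10800 that is described further on. At the other end, 12.6% of Rik and Gm genes by TSS, 19.0% by gene body and 17.4% by TES level were among the 1000 genes with the lowest level, against 7.86% of all genes. The low counts kept 2, 2 and 13 of the 484 genes out of the tests in the 3 regions.

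The highest TSS levels outside the Gm10800-related group, a view added after the values were seen, belonged to 9130023H24Rik, Gm21992 and 2010109A12Rik. TSS levels of 2010109A12Rik were 294, 243 and 296 CPM in WT against 218, 262 and 275 CPM in KO, beside 19.4 to 26.3 CPM in its WT gene body, so that its TSS to gene body ratio of 12.5 ± 1.28 in WT was the highest among the genes with at least 20 CPM in both regions. 1700028J19Rik, a long noncoding RNA, had a ratio of 7.45 ± 0.72, with a TSS level of 293, 255 and 273 CPM in WT against 346, 367 and 411 CPM in KO. Its groups did not overlap at the TSS, with a log2 fold change of 0.45 ± 0.16 (SE) and an adjusted p of 0.668.

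Gm20388 had the opposite order, with more CPM in the gene body than at the TSS. These ratios of single genes are not divided by gene length, so a long gene body can lower them. The gene body of Gm20388 held 6157, 6823 and 6195 CPM in WT against 6516, 6546 and 6534 CPM in KO. That is more than any other Rik or Gm gene in the gene body table, and its TSS to gene body ratio in WT, 0.0147 ± 0.0049, was the lowest. The next lowest ratio, 0.0208 ± 0.0078, was that of Gm37240, with 1121, 1463 and 865 CPM in the WT gene body. At the TES, Gm20721 had 591, 451 and 665 CPM in WT against 694, 861 and 680 CPM in KO, Gm20683 had 638, 441 and 622 against 700, 840 and 674 CPM, and Gm21983 had 523, 348 and 574 against 576, 627 and 583 CPM. The knockout libraries were above the WT libraries for each of these 3 genes at the TES, as for 6.69% of all genes, and none passed the test. Gm20721 and Gm20683 had nearly the same TES counts, 999, 460 and 1521 against 1079, 450 and 1423 in WT. In KO they had 906, 1884 and 1382 against 913, 1838 and 1371. Their TES windows may share reads, so they may not be separate observations.

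Some rows of Gm genes repeated the counts of a named gene. Among rows with a mean of at least 20 counts, 12 of 434 Rik and Gm genes (2.77%) had TES counts identical in all 6 libraries to another row, against 30 of 11851 named genes (0.253%). Gm20388 shared its TES counts with Galnt2, a glycosyltransferase, Gm44502 with Cpt1b, the muscle carnitine palmitoyltransferase, and Gm20716 with Adnp, a chromatin protein. At the TSS, Gm20708 had the counts of Syngr2, a synaptogyrin, and Gm42878 those of Adam1a. The gene body table had no such row. For these Gm genes the window holds the same reads as the named gene's, and a value cannot be assigned to either.

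Between genotypes, few Rik and Gm genes changed. The test was edgeR's quasi-likelihood F test of KO against WT over each whole region table, with Benjamini-Hochberg adjustment and an adjusted p under 0.05. At the TSS 0 of 482 Rik and Gm genes passed, against 0.339% of all genes tested, and DESeq2 called 0 as well. An unadjusted p under 0.05 was found for 34 of the 482 (7.05%, against 5.57% of all genes). Of these, 21 were lower in KO (4.36%, against 1.96% of all genes) and 13 higher (2.7%, against 3.62%). In the gene body 3 of 482 passed, against 0.252% of all genes; 2 were higher in KO (0.244% of all genes) and 1 lower (0.00787%). At the TES 2 of 471 passed, against 0.915% of all genes, 1 higher (0.82%) and 1 lower (0.0946%). WT and KO libraries did not overlap for 59 genes for the TSS (12.2%; 11.4% of all genes), 43 for the gene body (8.92%; 10.4%) and 55 for the TES (11.7%; 11.5%), shares near the background.

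Median log2 fold changes (KO minus WT) were -0.02 for the TSS, 0.01 for the gene body and -0.08 for the TES. Over all genes they were -0.01, -0.02 and -0.02. Scaling within each region table brings the median over all genes near 0. These values therefore compare Rik and Gm genes with the other genes and do not show whether RPB1 changed over all genes. With scaling over the joint table the TSS medians were 0.23 for Rik and Gm genes and 0.24 over all genes. At the TES 37.8% of the 471 Rik and Gm genes were above 0, against 47.8% of all genes; leaving out single libraries moved the TES median between -0.16 and 0.04. Taken apart, the TES medians were -0.09 for Rik and -0.07 for Gm genes. With a term for the libraries with fewer counts (depth class), the TES median was 0.02 for Rik and Gm genes together and 0.005 over all genes. Of the Gm genes 0 passed the test in any region, beside 0.339% (TSS), 0.252% (gene body) and 0.915% (TES) of all genes.

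2810006K23Rik carried more RPB1 in the knockout gene body. It is the mouse ortholog of human MTRFR, a mitochondrial factor that rescues stalled ribosomes, and RefSeq places it at chr5:124328089-124341852. Its gene body levels were 16.0, 21.3 and 18.7 CPM in WT against 55.3, 70.7 and 70.1 CPM in KO. All 3 knockout libraries lay above all WT libraries, with a log2 fold change of 1.81 ± 0.17 (SE; 3.51-fold) and an adjusted p of 0.0332. These values rest on 254 to 414 counts per WT library and 824 to 1637 per KO library.

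The start and end of 2810006K23Rik differed less. Its TSS was already among the highest of the Rik and Gm genes, 217, 244 and 278 CPM in WT, and held 299, 357 and 302 CPM in KO, a log2 fold change of 0.37 ± 0.17 with an adjusted p of 0.87. The TES held 73.9, 88.2 and 98.8 CPM in WT against 118, 143 and 128 CPM in KO, a log2 fold change of 0.57 ± 0.23 with an adjusted p of 0.49. Groups did not overlap in either region. The ratio of TES to gene body CPM was 4.61, 4.14 and 5.28 in WT and 2.13, 2.02 and 1.82 in KO. That ratio fell by 1.24 ± 0.19 on the log2 scale, with an adjusted p of 0.0495 in edgeR's test of the region by genotype interaction, which called 1 of 469 Rik and Gm genes and 0.0158% of all genes (0.00789% lower and 0.00789% higher). The ratio of TSS to gene body CPM was 13.6, 11.5 and 14.8 in WT and 5.40, 5.04 and 4.31 in KO. Its log2 change was -1.44 ± 0.19, with an adjusted p of 0.14 in the same kind of test. The test of the TSS ratio called 0 of 480 Rik and Gm genes and 0 of all genes. An unadjusted p under 0.05 was found for 19 of the 480 (3.96%, against 3.64% of all genes). Of these, 17 were lower in KO (3.54%, against 1.82% of all genes) and 2 higher (0.417%, against 1.82%). The call on the TES ratio was lost with RLE scaling (adjusted p = 0.0537), with limma (0.261) and without WT replicate 1 or any single KO library (0.0699 to 0.647), while the log2 change stayed between -1.33 and -1.14.

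Mphosph9, a centriolar protein gene, lies on the opposite strand, and its gene model overlaps that of 2810006K23Rik by 1309 bases. Its gene body held 97.0, 106 and 116 CPM in WT against 102, 108 and 109 CPM in KO, a log2 fold change of -0.003 ± 0.13. At the TSS it had 166, 187 and 47.4 CPM in WT against 217, 142 and 131 CPM in KO, so that the groups overlapped. The width of the counted TSS windows is not given in the sources used here, and reads near these starts may lie in either gene's window.

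1700013F07Rik was higher in knockout in its body and TES. It is the ortholog of human CFAP276, a protein of the ciliary axoneme, at chr3:108537584-108544697. Its gene body had 9.01, 10.5 and 6.33 CPM in WT against 23, 26.5 and 27.6 CPM in KO, a log2 fold change of 1.59 ± 0.22 (3.0-fold, adjusted p = 0.0436). At the TES it had 11.8, 26.5 and 10.9 CPM in WT against 80.5, 88.7 and 84.1 CPM in KO, a log2 fold change of 2.47 ± 0.27 (5.55-fold, adjusted p = 4.05e-08). The groups lay well apart in both regions. At the TSS, where the libraries held 5 to 28 counts, levels were 3.81, 8.27 and 1.60 CPM in WT against 9.01, 7.67 and 6.59 CPM in KO, which overlap (log2 fold change 0.98 ± 0.60, adjusted p = 0.952).

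The gene across the start of 1700013F07Rik is another Rik gene, 5330417C22Rik or Elapor1, which encodes a transmembrane protein of endosomes and lysosomes. The gene models are 838 bases apart and the printed promoter windows, set on a start inside the 5330417C22Rik model, 542 bases apart. At its TSS 5330417C22Rik had 3.81, 6.21 and 7.36 CPM in WT against 12.9, 15.3 and 17.2 CPM in KO. Every knockout library was above every WT library, with a log2 fold change of 1.37 ± 0.40 and an adjusted p of 0.417. Gene body levels overlapped, 44.2, 74.2 and 30.2 CPM in WT against 81.7, 65.6 and 78.7 CPM in KO (log2 fold change 0.61 ± 0.30, adjusted p = 0.934). Its TES did not differ beyond its spread, 8.87, 24.5 and 7.0 CPM against 14.6, 9.60 and 15.2 CPM.

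9130023H24Rik fell in the knockout gene body. RefSeq lists it as protein coding at chr7:128234451-128238031, where its model overlaps that of Armc5 by 675 bases. Gene body levels were 17.0, 11.8 and 15.7 CPM in WT against 4.83, 5.23 and 4.24 CPM in KO, and the groups did not overlap. The log2 fold change was -1.64 ± 0.21 (0.321-fold) and the adjusted p was 0.0368. No other gene of the whole gene body table was called lower. Its TSS had the highest WT mean of the Rik and Gm genes outside the Gm10800-related group, 247, 242 and 618 CPM, and 16.9, 92.8 and 131 CPM in KO. That difference, -2.18 ± 0.54, had an adjusted p of 0.243. The adjusted p was 0.0195 with scaling over the joint table, 5.05e-08 with a term for depth class and 0.0336 without KO replicate 1; over the other 5 libraries left out in turn it was 0.296 to 0.961.

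Levels at the TES of 9130023H24Rik overlapped, 27.8, 40.2 and 35.9 CPM in WT against 32.2, 25.1 and 26.6 CPM in KO, with a log2 fold change of -0.31 ± 0.28. The ratio of TES to gene body CPM was 1.64, 3.40 and 2.29 in WT and 6.66, 4.81 and 6.26 in KO, which did not overlap and did not pass (adjusted p = 0.38). The nearest gene analysed here is Tgfb1i1, which encodes a focal adhesion adaptor, 8780 bases away. Its TES levels fell from 145, 215 and 307 CPM in WT to 84.3, 94.6 and 98.8 CPM in KO (log2 fold change -1.26 ± 0.26, adjusted p = 0.00538). How the Armc5 allele was made is not given in the sources used here, so an effect of the altered locus on the genes beside it and an effect of the absence of ARMC5 cannot be told apart.

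1600014C10Rik fell at the TES. It is the ortholog of human C19orf12, a mitochondrial and endoplasmic reticulum membrane protein mutated in a form of neurodegeneration with brain iron accumulation, and lies at chr7:38183217-38197568. TES levels were 111, 137 and 52.0 CPM in WT against 43.7, 42.5 and 34.4 CPM in KO. WT replicate 3 lay much closer to the knockout libraries than the other WT libraries did, and the log2 fold change was -1.29 ± 0.26 (0.408-fold, adjusted p = 0.00327). Without WT replicate 2 it was -1.02 with an adjusted p of 0.0682. Leaving out any other single library kept the TES call. WT replicates 1 and 2 and KO replicate 1 are also the libraries with fewer counts, and the drop was smaller among the others, from 52.0 CPM to 42.5 and 34.4 CPM. The TES call was also made with a term for depth class, with DESeq2 and with limma. The part of the number of counts in the drop was not tested further. Gene body levels of 103, 125 and 82.1 CPM in WT against 60.7, 69.7 and 83.1 CPM in KO overlapped by 1 library on each side (-0.54 ± 0.19, adjusted p = 0.754). TSS levels of 45.7, 62.1 and 40.0 against 31.5, 23.5 and 37.0 CPM did not overlap (-0.67 ± 0.26, adjusted p = 0.741). Its neighbour Plekhf1, an endosomal lipid-binding protein gene, had a TES log2 fold change of -0.42 ± 0.32 with overlapping groups.

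**Figure D3:**
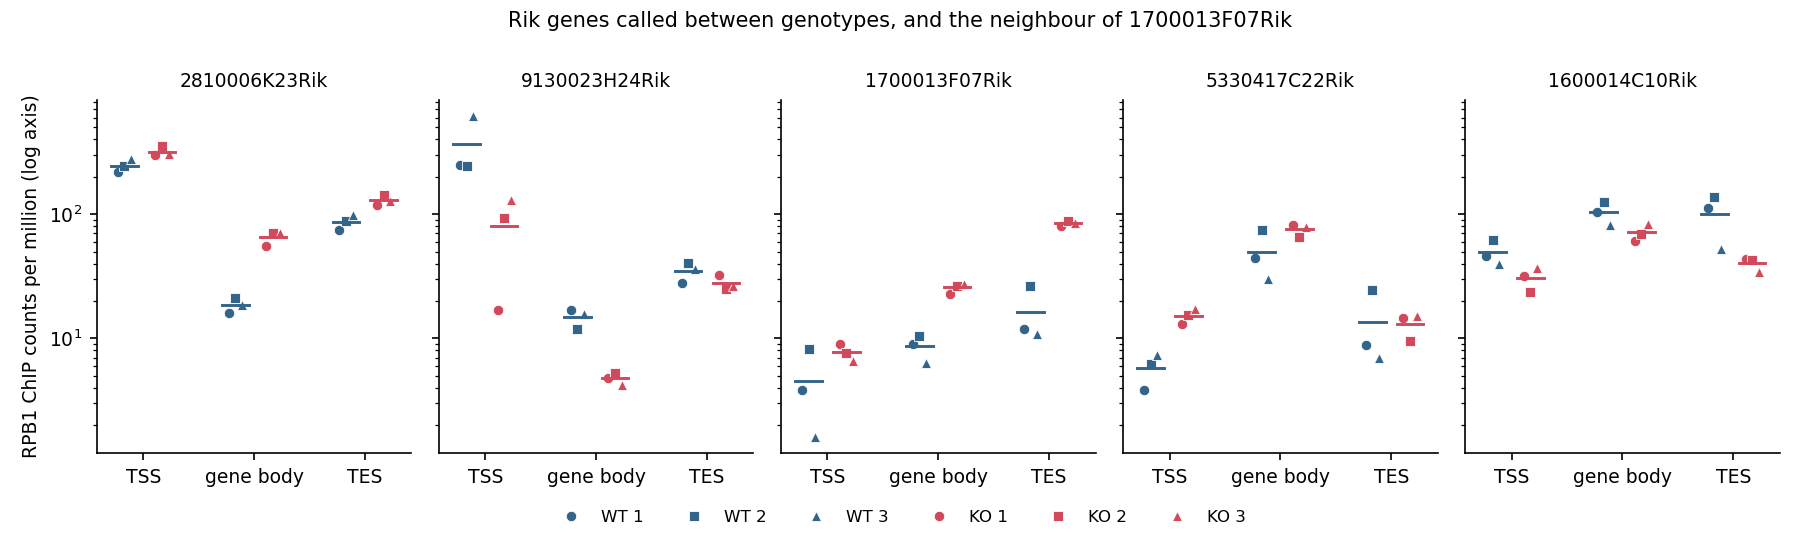
RPB1 ChIP CPM (log y axis) of the 4 Rik genes called in any region and of 5330417C22Rik at the TSS, gene body and TES. Points are libraries, bars means of 3 mice; the gene body levels of 2810006K23Rik rise from 16.0 to 21.3 CPM in WT to 55.3 to 70.7 CPM in KO, and those of 9130023H24Rik fall from 11.8 to 17.0 CPM to 4.24 to 5.23 CPM.

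The 3 gene body calls changed with the libraries used. None of the 3 passed without WT replicate 1 or without KO replicate 1, 2 or 3; without WT replicate 3 only 2810006K23Rik passed, and all 3 passed without WT replicate 2. Scaling over the joint table ended the 3 calls (adjusted p = 0.0902, 0.182 and 0.0902 for 2810006K23Rik, 1700013F07Rik and 9130023H24Rik), as did a term for mouse numbers that begin with C (0.0764, 0.122 and 0.1). Their log2 fold changes stayed between 1.71 and 1.92 for 2810006K23Rik, 1.4 and 1.75 for 1700013F07Rik, and -1.77 and -1.53 for 9130023H24Rik. The TES call of 1700013F07Rik held whichever library was left out. The medulla marker sum, 153 to 348 CPM in WT and 219 to 655 CPM in KO, and the number of counts differed among the same libraries, and their part in these results was not tested. With a term for the 3 libraries of fewer counts, 5 gene body calls were made among Rik and Gm genes, the 3 above with Gm49342 and Gm20481, and the share of all genes called rose to 0.747%.

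Across the 469 genes tested in both regions, the gene body and TES log2 fold changes had a rank correlation of 0.35, against 0.44 over 12207 named genes. The points share libraries and, at the ends of genes, possibly reads. 1700013F07Rik was the only Rik or Gm gene called in both regions.

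**Figure D4:**
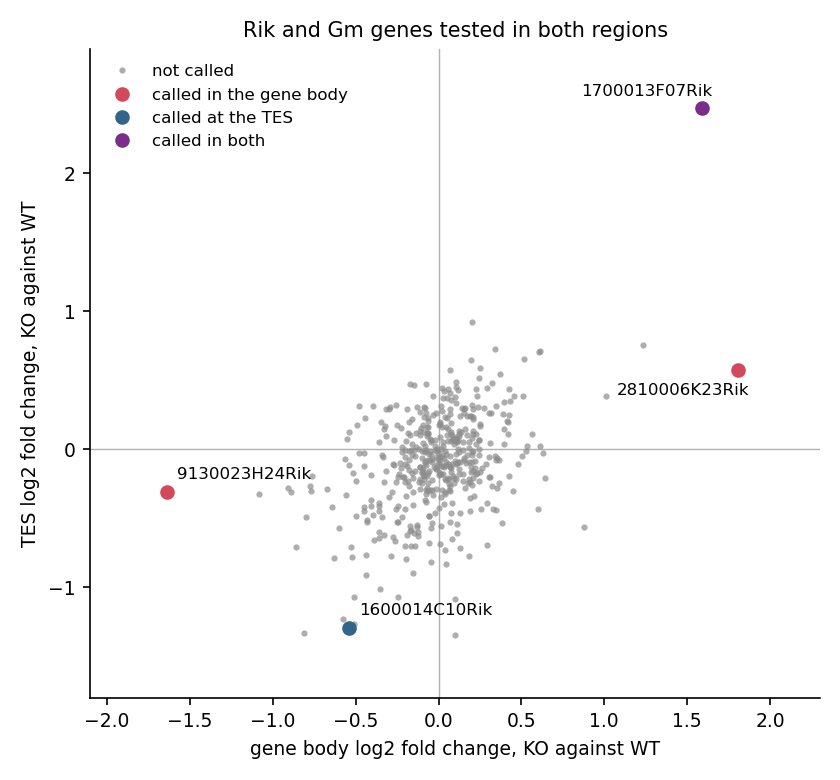
Log2 fold change of KO against WT in the gene body (x axis) and at the TES (y axis) for the 469 Rik and Gm genes tested in both. Coloured points passed an adjusted p of 0.05; 1700013F07Rik lies at 1.59 and 2.47, and most other genes lie within 1 of 0 on both axes.

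Genes that came next in order of p were also followed. Gm49342 had gene body levels of 32.4, 24.9 and 33.6 CPM in WT against 60.6, 62.9 and 60.4 CPM in KO, which do not overlap, with a log2 fold change of 1.01 ± 0.15 and an adjusted p of 0.0592. At its TSS the levels were 145, 112 and 183 against 208, 243 and 245 CPM (0.65 ± 0.19, adjusted p = 0.417). Gm49342 is not in the RefSeq table. Gm20481 had gene body levels of 8.29, 7.89 and 2.94 against 17.8, 13.8 and 12.9 CPM (adjusted p = 0.517) and TES levels of 95.8, 120 and 108 against 208, 195 and 143 CPM (adjusted p = 0.201). Both regions of Gm20481 were higher in every knockout library.

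Further genes had groups apart in 1 region. Gm49711 had 204, 195 and 148 CPM in the WT gene body against 269, 289 and 286 CPM in KO (log2 fold change 0.63 ± 0.16, adjusted p = 0.328). 1700056E22Rik had 98, 69.3 and 111 CPM at the WT TSS against 138, 182 and 154 CPM in KO (0.75 ± 0.19, adjusted p = 0.275). On the other side, the TSS of Gm20532 held 69.1, 56.9 and 41.3 CPM in WT against 23.1, 34.8 and 31.1 CPM in KO (-0.89 ± 0.26, adjusted p = 0.417), with overlapping gene bodies. Gm45844 had 19.8, 26.2 and 17.2 CPM in the WT gene body against 15.3, 9.20 and 9.22 CPM in KO (-0.91 ± 0.26, adjusted p = 0.457). None of these passed the test, although DESeq2 called Gm49711 in the gene body and a term for depth class gave a call of 1700056E22Rik at the TSS. The groups of the same genes overlapped in at least 1 other region.

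Predicted genes at the end of chromosome 2 lay on the lower side together, a group picked after its values were seen. RefSeq places 7 of the Gm genes between 176708353 and 177957386 on chromosome 2, with Zfp970 and Zfp971, which encode zinc finger proteins, as the nearest genes of 2 of them. All 7 had a log2 fold change below 0 in each of the 3 regions, with medians of -0.46 for the TSS, -0.77 for the gene body and -0.32 for the TES, and 0 of 7 passed in any region. Over all genes 48.4%, 46.3% and 47.8% were above 0, and 0.339%, 0.252% and 0.915% passed. Gm14403 passed at the TES with a term for depth class. Gm14401, a pseudogene, had TES levels of 21.3, 44.1 and 26.2 CPM in WT against 8.43, 8.68 and 18.2 CPM in KO (-1.33 ± 0.45, adjusted p = 0.235). Gm14403 had 72.1, 133 and 153 CPM at the WT TES against 55.2, 85.5 and 77.2 CPM in KO (-0.71 ± 0.25, adjusted p = 0.307), which overlap, and Gm14322 had 3.70, 6.38 and 5.83 CPM in the WT gene body against 2.55, 1.60 and 3.35 CPM in KO (-1.08 ± 0.34, adjusted p = 0.602). Genes of such zinc finger clusters can be near-identical, so the assignment of reads to single members is uncertain.

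Divergent partners of the Rik and Gm genes were compared next. Over the 45 Rik and Gm genes with a divergent partner, the TSS levels of gene and partner had a rank correlation of 0.66 in WT. Their TSS log2 fold changes had one of 0.43. 1700013F07Rik and 5330417C22Rik are each other's partner, so that pair enters both correlations in both directions. Their TSS log2 fold changes, 0.98 and 1.37, are the highest among the 45. The model ends at the start lie within 1000 bases of each other, so the members of a pair may share reads. In the knockout comparison 0 of the 45 passed for the TSS, 1 for the gene body and 1 for the TES, both calls being 1700013F07Rik, beside 0.339%, 0.252% and 0.915% of all genes.

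Of 21 interferon-inducible Rik and Gm genes in a fixed list, 3 were in the tables: Gm4951, Gm5431 and Gm12185, predicted interferon-inducible GTPases. Gm4951 had 14.7, 24.8 and 13.8 CPM at the WT TSS against 32.1, 32.3 and 30.4 CPM in KO (0.88 ± 0.30, adjusted p = 0.58). The TSS levels of Gm5431 were 8.17, 9.31 and 3.20 against 11.8, 11.8 and 9.88 CPM, and those of Gm12185 were 11.4, 11.4 and 8.64 against 15.8, 17.5 and 13.5 CPM. Knockout libraries were above WT libraries for all 3 at the TSS, as for 6.47% of all genes, and 0 of 3 passed the test (0.339% of all genes). The groups of all 3 overlapped in their bodies and TES. Gm5431 and Gm12185 are neighbours on chromosome 11 with 2503 bases between them.

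The 20 genes that RefSeq now lists under another name gave 0 calls among 20 in each region. Over all genes 0.339% (TSS), 0.252% (gene body) and 0.915% (TES) were called, so 0 among 20 is near the background. Their median log2 fold changes were 0.03 for the TSS, -0.07 for the gene body and 0.01 for the TES. 1700021F05Rik (Mtres1) had TSS levels of 71.3, 61.0 and 68.5 CPM in WT against 72.0, 60.8 and 62.9 CPM in KO. A230050P20Rik (Shfl) had 36.5, 57.9 and 33.9 against 34.9, 40.5 and 28.2 CPM, and 2410131K14Rik (Spring1) had 40.8, 48.6 and 41.0 against 50.7, 41.1 and 34.8 CPM. All 3 overlapped between genotypes. 9330182L06Rik (Elapor2), the paralog of 5330417C22Rik, had 13.6, 22.8 and 22.4 against 27.0, 24.1 and 13.9 CPM at its TSS, which also overlapped.

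The largest TSS and TES counts among the Gm genes came from a group of names that go with Gm10800, a predicted gene in satellite-like repeats. Of 15 such names in a fixed list, Gm10800 included, 9 were among the Gm genes counted here. Gm10801 had 4366, 9719 and 1410 CPM at the WT TSS against 3782, 452 and 1731 CPM in KO, and at the TES 14875, 31452 and 4770 CPM in WT against 13791, 9252 and 12880 CPM in KO. Gm10722 had 6277, 11576 and 1760 CPM at the WT TSS against 3890, 1093 and 2608 CPM in KO. WT and KO libraries overlapped for both genes in each region, and single libraries of a genotype differed several-fold.

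Summed over the 9 genes, TSS levels were 13473, 24906 and 4495 CPM in WT against 9277, 2499 and 6553 CPM in KO. The highest sums in each genotype were in the libraries with fewer counts, WT replicates 1 and 2 and KO replicate 1. The TES sums were 24604, 44440 and 8358 CPM in WT against 22495, 12671 and 18476 CPM in KO, again highest in WT replicate 2 and, among the knockouts, in KO replicate 1. Not all 9 genes followed the sums. At the TSS Gm10718 had 2192, 15 and 2816 counts in WT against 848, 2458 and 3981 counts in KO. Gm10719 had 46, 1 and 27 against 3, 32 and 40 counts there. At the TES Gm10719 had 2636, 147 and 2682 counts in WT, and Gm10720 had 841, 57 and 478. Each of these was lowest in WT replicate 2 among the WT libraries. Log2 fold changes of the 9 genes ranged from -1.90 to 0.34 at the TSS, with a median of -1.23. In each region 0 of 9 passed, beside 0.339% (TSS), 0.252% (gene body) and 0.915% (TES) of all genes. At the TES, Gm10715 and Gm10722 passed without WT replicate 3, and these and Gm11168 without KO replicate 1. Gm11168 also passed at the TSS without WT replicate 3. Gm10800 itself held 2.67% to 25.1% of all TSS counts and was again highest in WT replicate 2.

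**Figure D5:**
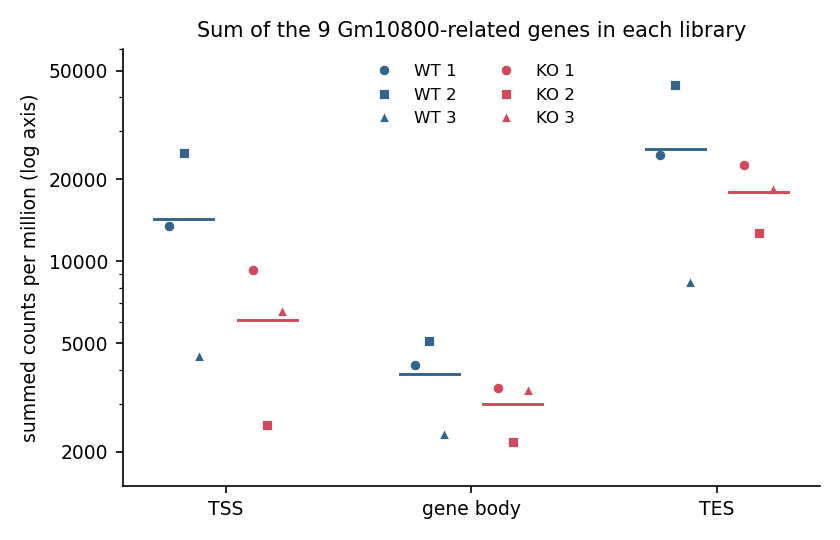
Summed CPM (log y axis) of the 9 Gm10800-related genes at the TSS, gene body and TES. Points are libraries and bars means of 3 mice; at the TSS the sums run from 2499 CPM in KO replicate 2 to 24906 CPM in WT replicate 2, and the groups overlap in each region.

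The share of a library held by Rik and Gm genes was given with and without these genes. With Gm10800 left out of the totals, Rik and Gm genes held 3.53% to 5.84% of TSS counts, 3.41% to 3.65% of gene body counts and 3.31% to 7.85% of TES counts, with the highest value in WT replicate 2 in each region. Without the 9 related genes as well, the shares were 3.01% to 3.31%, 3.01% to 3.26% and 2.49% to 2.91%. By genotype the remaining TSS share was 3.16% ± 0.13 in WT and 3.19% ± 0.16 in KO (SD, n = 3), a difference within the spread of either group.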

How the data were processed

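The authors deposited whole-number read counts per gene for the TSS, gene body and TES of 6 libraries. Per the submitters' processing notes, the builds were GRCm38 and mm10 and the tools edgeR, limma, HOMER, MACS2, BWA, Picard, Trimmomatic and bcl2fastq 2.20, with no roles named. The sources used here do not give window widths, the counting tool or the use of an input library. A further deposited table stacks the same counts, with 0 cells that differ, and served for a joint scaling. Deposited log2 values were not used.

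Each whole table was fitted with edgeR 4.0.16 in R 4.3.3 (TMM scaling, filterByExpr with a minimum count of 10 and total of 15, quasi-likelihood F test, no covariate), with Benjamini-Hochberg adjustment over all genes and a threshold of 0.05. SE is the size of the log2 fold change over the square root of F. Ratios between regions were tested as an interaction with each library as a block. Gene models and promoters came from RefSeq GRCm38.p6. The script was tested on simulated data. The smallest exact two-sided permutation p for 3 against 3 is 0.1, so single values got none. Counting limits the precision of low rows. Alternatives were RLE scaling, totals only, joint scaling, DESeq2 1.42.0, limma 3.58.1, other filters, added terms and leaving out each library.

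Members and lists were chosen with earlier results of these data known. The genes picked for mention are a different set from the 12233 named genes of the comparisons. They were those called, up to 5 further non-overlapping genes with the smallest p per table and direction, and the 8 highest WT levels per region. Others were the 5 highest and 5 lowest TSS to gene body ratios and up to 3 further genes per ratio test and direction. Neighbours of called genes and the fixed lists were added. Armc5 and Th were not analysed here.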

Additional observations from a re-analysis of the deposited data

How the results depend on the processing

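Counts of called Rik and Gm genes moved as follows, with the share of all genes called in brackets. The TSS count of 0 (0.339%) became 1 with joint table scaling (0.844%), with a replicate block (0.789%) and with a mouse number term (0.591%), 9130023H24Rik each time, and 4 with a depth class term (1.25%). The gene body count of 3 (0.252%) became 0 with joint table scaling, the replicate block and the mouse number term, each with 0 calls over all genes, and 5 with DESeq2 (1.41%) and with the depth class term (0.747%). The TES count of 2 (0.915%) became 4 with the mouse number term (1.19%) and was 2 with the replicate block (1.53%). For the TSS ratio the count of 0 (0%) became 1 with the depth class term (0.213%). For the TES ratio the count of 1 (0.0158%) became 0 with RLE scaling, gene body scaling, without the Gm10800 row, with limma and with limma and the replicate block, each with 0 calls over all genes. Replicate numbers were not treated as pairs in the main tests. The deviations of WT and KO libraries of the same number were compared for numbers 1, 2 and 3 in turn. Their correlations were 0.443, -0.215 and 0.361 (TSS), 0.0734, -0.594 and 0.277 (gene body) and 0.0307, -0.31 and 0.212 (TES). The highest gene body value, 0.717, was between WT replicate 2 and KO replicate 1. These values do not settle whether the numbers pair the samples. Leaving out single libraries gave 0 to 2 TSS calls, 0 to 3 gene body calls, 1 to 6 TES calls (1 without WT replicate 2, 5 without WT replicate 3 and 6 without KO replicate 1), 0 to 0 for the TSS ratio and 0 to 2 for the TES ratio, and median log2 fold changes of -0.033 to 0.020, -0.019 to 0.025 and -0.16 to 0.036 for TSS, gene body and TES. Joint scaling shifted the median log2 fold change of all genes to 0.24 (TSS), -0.12 (gene body) and -0.12 (TES), and that of Rik and Gm genes to 0.23, -0.096 and -0.18; with table totals theirs was 0.080 for the TSS and 0.045 for the gene body. The WT median at the TSS was 38.4 CPM with table totals, 44.4 CPM without the Gm10800 row, which makes the denominator smaller, 33.9 CPM for the genes apart from others and 47.2 CPM with the stricter filter; the last 2 were 19.0 and 29.4 CPM in the gene body. Signs turned for the TES of 5330417C22Rik (0.02 as reported, -0.047 with totals, -0.068 with joint scaling, -0.30 to 0.72 when single libraries were left out), for the TSS ratio of 9130023H24Rik (-1.33 to 0.019 when single libraries were left out, highest without KO replicate 1) and for that of 1600014C10Rik (0.21 with gene body scaling, -0.29 to 0.0062 when single libraries were left out, highest without KO replicate 2). The median TES log2 fold change of Rik and Gm genes also turned, from -0.083 as reported to 0.023 with the depth class term (0.0049 over all genes). The cause of these shifts was not tested. TSS values of 1700013F07Rik and 5330417C22Rik rest on few reads.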
